A study of Mus musculus with 12 samples.

Results

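The MHC class I presentation genes described here are B2m, H2-K1, H2-D1, H2-T23, H2-Q7, Tap1, Tap2, Tapbp and Nlrc5. They were chosen by gene symbol and make up 9 of the 32285 genes listed in the count tables. Each of the 9 had UMIs in every library and passed the filter on low counts in every comparison. Together they held 753465 of the 100000541 UMIs kept, or 0.562% and 0.879% of the UMIs of the islet IGRP- libraries of Rounds 1 and 2, 0.535% and 0.891% of the islet IGRP+ libraries, and 0.629% and 1.03% of the spleen IGRP+ libraries. In each group the 9 genes took a larger share of UMIs in Round 2 than in Round 1.

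MHC class I molecules display peptides from inside the cell to CD8 T cells. A polymorphic heavy chain pairs with β2-microglobulin in the endoplasmic reticulum, where peptides made by the proteasome arrive through the TAP transporter and tapasin helps load them. Almost all nucleated cells carry class I molecules, T cells included, so a CD8 T cell is both a reader of these molecules and a source of them.

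The study sorted CD8 T cells of prediabetic female NOD/ShiLtJ mice, a strain that develops autoimmune diabetes, at 10 to 15 wk of age, and stained them with a tetramer of H-2Kd loaded with a mimotope of the islet autoantigen IGRP. There were 3 groups of 2 libraries: tetramer-negative (IGRP-) cells of the islets, tetramer-positive (IGRP+) cells of the islets and tetramer-positive cells of the spleen. Each group was sequenced in Round 1 and in Round 2, and each round was 1 pool of 10 mice. P-values therefore measure the spread between pools and libraries and not between mice. Where the model holds the round, they measure only the spread between libraries left after group and round. All mice were of the same strain and received no treatment named in the sources. Cells were sorted as CD45.1+ CD8+ and negative for CD4, B220 and CD11b. Spleen cells alone were enriched with beads before the sort and, by the study's account, were also sorted as CD44+, and they were kept only up to 2000 genes per cell, against 3500 in the islets, so tissue, gate and handling cannot be told apart. The NOD class I haplotype is H2-g7, with Kd and Db heavy chains, whereas reads were aligned to mm10, a C57BL/6 genome with Kb and Db. A count under H2-K1 is therefore a count of NOD reads that aligned to the reference copy of that gene.

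After the filters 24117 of 26818 cells remained. The median cell held 3793 to 4216.5 UMIs in the islet libraries and 2590 and 2764.5 in the spleen libraries. Library pairs shared 2 to 64 cell barcodes, at most 1.03% of the smaller library. The 6 CD8 T cell markers summed to 4198 to 5884 CPM (UMI counts scaled to a common library total), while Cd4 reached at most 0.173 CPM and the 2 NK markers 1.01. The 4 B cell markers summed to 1.53 to 11.4 CPM and the 5 myeloid markers to 14.8 to 30.1. The 6 acinar markers summed to 42.7 to 235 CPM in the islets and to 5.62 and 6.51 in the spleen, and the 5 endocrine markers to 3.05 to 13.8 CPM in the islets and 0 in the spleen. A stricter T cell gate, an alternative to all cells kept, left 78.99% to 90.33% of the cells of a library.

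By the GENCODE annotation of GRCm38, B2m lies on chromosome 2 (122147686 to 122153083, plus strand, 4 exons) and Nlrc5 on chromosome 8 (94434356 to 94527272, plus strand, 53 exons). The other 7 lie within the MHC on chromosome 17, in the order Tapbp (33915899 to 33929292, plus strand, 8 exons), H2-K1 (33996017 to 34000347, minus strand, 8 exons), Tap1 (34187553 to 34197225, plus strand, 11 exons), Tap2 (34203527 to 34216321, plus strand, 12 exons), H2-D1 (35262730 to 35267499, plus strand, 8 exons), H2-Q7 (35439155 to 35443773, plus strand, 8 exons) and H2-T23 (36029773 to 36032855, minus strand, 7 exons). Exons are those of the longest coding transcript.

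The bases upstream of these genes are shown because class I genes are textbook examples of a shared promoter layout, with an NF-κB site, an interferon-response element and a module to which the NLRC5 complex is recruited. RefSeq promoters (GRCm38.p6) were at hand for 7 of the 9 genes, all but Tap2 and Nlrc5. Matches are in capitals, and 4 motifs were searched on both strands: the NF-κB site of the class I enhancer (the 10 capitals of H2-K1 and H2-D1), the core of the interferon-stimulated response element (the 10 capitals of B2m, with any letter at its middle positions), TGACG and ATTGG. Of 32851 promoters of 300 bases, 35 (0.1065%) held the NF-κB site, 3.443% the interferon-response core, 20.81% TGACG and 37.41% ATTGG. The NF-κB site stood upstream of H2-K1, H2-D1 and H2-Q7, starting 111, 171 and 133 bases before the RefSeq start. The interferon-response core stood upstream of B2m and H2-T23, starting 139 and 124 bases before it. TGACG and ATTGG followed downstream of these in B2m, H2-K1, H2-D1 and H2-Q7. Only exact matches were counted, apart from the middle positions of the interferon-response core. Variants of a site with other letters were not searched for, so a promoter without a match may still hold such a site. The 250 bases before the start are given for B2m (chr2:122147437-122147686, plus strand), H2-K1 (chr17:34000348-34000597, minus strand) and H2-Q7 (chr17:35438905-35439154, plus strand), each read 5′ to 3′.
B2m: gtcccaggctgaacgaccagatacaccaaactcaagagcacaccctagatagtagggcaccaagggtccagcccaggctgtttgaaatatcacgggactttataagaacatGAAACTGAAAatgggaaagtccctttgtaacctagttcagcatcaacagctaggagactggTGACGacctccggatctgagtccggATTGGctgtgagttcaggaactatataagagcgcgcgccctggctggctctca
H2-K1: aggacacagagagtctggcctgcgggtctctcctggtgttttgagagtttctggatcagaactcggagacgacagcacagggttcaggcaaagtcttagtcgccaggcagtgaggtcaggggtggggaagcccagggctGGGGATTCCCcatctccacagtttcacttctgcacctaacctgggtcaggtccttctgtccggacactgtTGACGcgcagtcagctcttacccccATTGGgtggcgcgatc
H2-Q7: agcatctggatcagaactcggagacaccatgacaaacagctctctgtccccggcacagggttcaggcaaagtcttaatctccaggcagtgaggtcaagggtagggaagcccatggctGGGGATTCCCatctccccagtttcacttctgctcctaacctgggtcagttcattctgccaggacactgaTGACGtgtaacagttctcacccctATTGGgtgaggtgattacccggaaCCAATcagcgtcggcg

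For H2-D1, H2-T23 and Tap1, 30 bases around a match are given, because GENCODE places exons over much of their upstream bases. These are chr17:35262913-35262942 (plus strand) for H2-D1 and chr17:36032806-36032835 (minus strand) for H2-T23, where the match is on the opposite strand. For Tap1 they are chr17:34187458-34187487 (plus strand), which lies between the RefSeq starts of Tap1 and Psmb9.
H2-D1: gcccagggctGGGGATTCCCcatctcctca
H2-T23: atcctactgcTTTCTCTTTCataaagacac
Tap1: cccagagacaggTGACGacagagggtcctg
The upstream bases of H2-K1 and H2-D1 shared an identical run of 47 bases that holds the NF-κB site, and those of H2-K1, H2-D1 and H2-Q7 together shared a run of 21. Tapbp, not printed, held ATTGG starting 248 and 165 bases before its RefSeq start and none of the other 3 motifs. A match describes the reference letters only, and the lack of a match does not show that a site is absent.

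The levels that follow are CPM over the library total scaled by the trimmed mean of M-values (TMM), called normalised CPM, from UMIs summed over the cells of a library. In summed counts, fewer cells with a transcript and fewer transcripts per cell cannot be told apart. Libraries are given in the order of Rounds 1 and 2.

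B2m, the light chain of all class I molecules, stood at 2044 and 2519 normalised CPM in the islet IGRP- libraries, 2041 and 2487 in the islet IGRP+ libraries and 2089 and 2420 in the spleen IGRP+ libraries. The 3 groups overlapped, and the rounds lay further apart than the groups. For shares of cells, those under 1000 UMIs were dropped and the others thinned to 1000 UMIs. Of the cells left, 83.9% and 91.2% of islet IGRP-, 84.8% and 91.5% of islet IGRP+ and 86.7% and 91.9% of spleen IGRP+ cells had a B2m UMI. No cell type that lacks class I was present to give a background for such shares.

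H2-D1, the classical heavy chain for which NOD and the reference both carry Db, was at 2771 and 3569 normalised CPM in islet IGRP- cells, 2698 and 3067 in islet IGRP+ cells and 2997 and 3048 in spleen IGRP+ cells. Its groups overlapped too. H2-K1, the other classical heavy chain and the restriction element of the tetramer, was at 476 and 1459 in islet IGRP- cells, 373 and 1715 in islet IGRP+ cells and 423 and 2167 in spleen IGRP+ cells. All 3 Round 1 libraries lay under all 3 Round 2 libraries for H2-K1, whatever the group.

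H2-T23 encodes Qa-1, a nonclassical molecule that binds class I signal peptides and is read by NKG2 receptors. It was at 105.3 and 128.2 normalised CPM in islet IGRP- cells, 153.7 and 196.7 in islet IGRP+ cells and 137.6 and 172.4 in spleen IGRP+ cells. Both islet IGRP- libraries lay below the other 4. H2-Q7 encodes Qa-2, another nonclassical molecule, and was at 253.7 and 426.6 in islet IGRP- cells, 294.0 and 386.9 in islet IGRP+ cells and 377.0 and 480.3 in spleen IGRP+ cells, with overlap between all groups.

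Tap1 and Tap2 encode the subunits of the peptide transporter. Tap1 was at 112.8 and 165.8 normalised CPM in islet IGRP- cells, 88.8 and 153.2 in islet IGRP+ cells and 98.3 and 134.9 in spleen IGRP+ cells, with overlap. Tap2 was at 100.6 and 125.1, 94.8 and 131.3, and 154.0 and 206.0 in the same order. Both spleen libraries held more Tap2 than all 4 islet libraries, and the 2 islet groups overlapped.

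Tapbp, which encodes tapasin, was at 152.0 and 198.5 normalised CPM in islet IGRP- cells, 120.9 and 162.7 in islet IGRP+ cells and 149.8 and 200.6 in spleen IGRP+ cells. Nlrc5, the transactivator of class I genes, was the lowest of the 9, at 76.5 and 106.7, 46.9 and 101.2, and 61.0 and 94.98 in the same order. For both genes the groups overlapped.

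**Figure D1:**
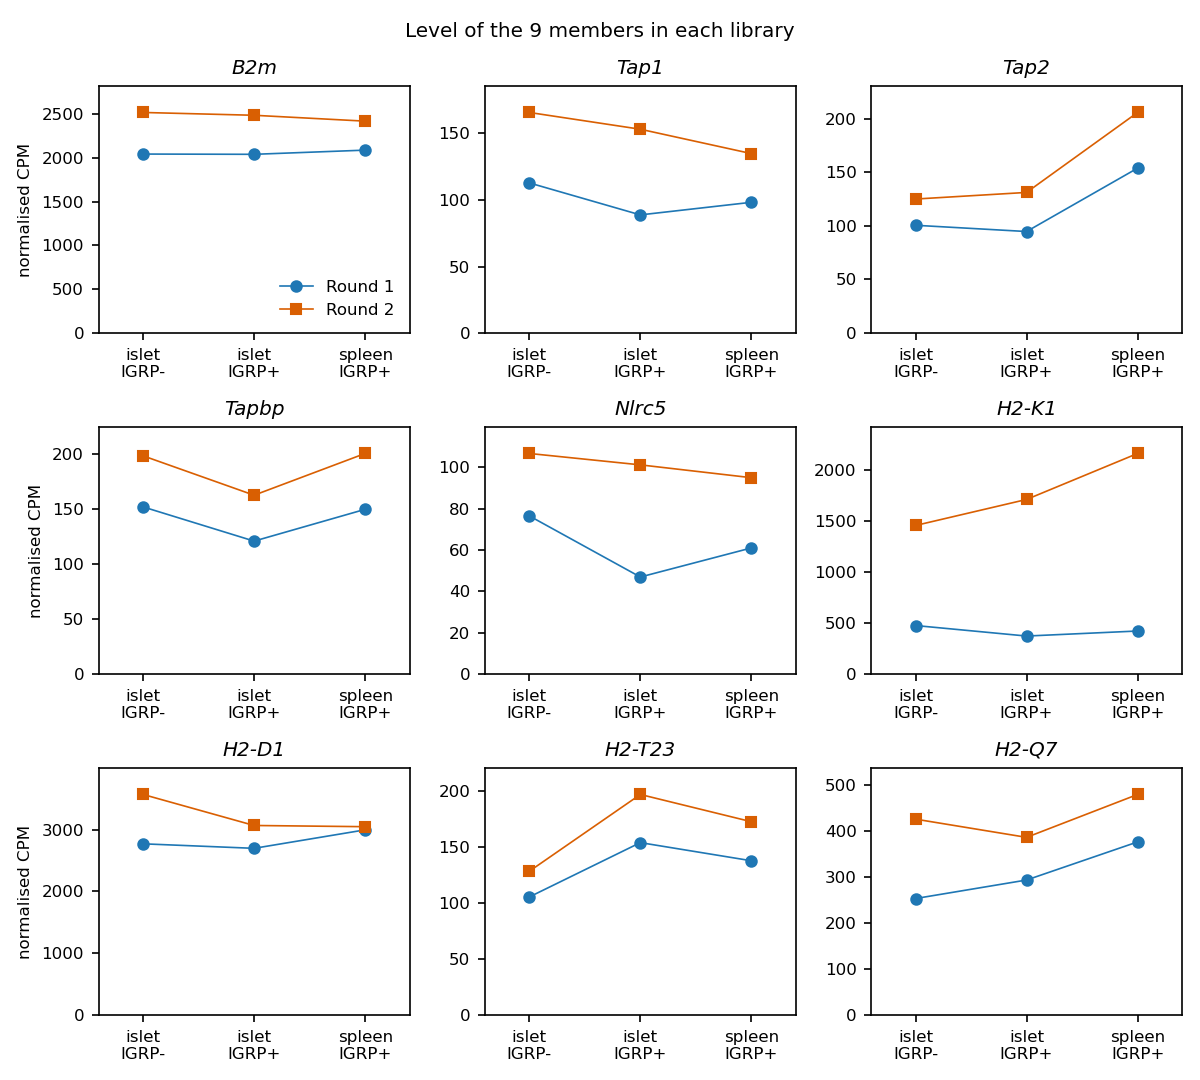
Normalised CPM of each of the 9 genes (y axis, linear from 0) in the 6 libraries, by group on the x axis, with circles for Round 1, squares for Round 2 and lines joining the libraries of a round. H2-T23 is lower in both islet IGRP- libraries than in the other 4, Tap2 is higher in both spleen libraries, and H2-K1 separates by round.

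The first question was whether islet cells that bind the tetramer and those that do not differ in these genes. H2-T23 was the gene with the largest difference between islet IGRP+ and islet IGRP- cells, 1.52-fold higher in IGRP+ cells, and the other 8 did not pass in either model. With edgeR and no term for the round, 0 of the 9 genes passed an adjusted p of 0.05, against 1.19% of all 11277 genes tested. In that test 1 of the 9 genes had an unadjusted p under 0.05, and DESeq2 also called 0. H2-T23 had a log2 difference of 0.60 ± 0.21 (SE, 2 libraries a group, edgeR adjusted p = 0.224).

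Each round was 1 pool of mice split into the groups, so the round pairs libraries, and edgeR with the round as a block called H2-T23 (0.60 ± 0.11, 95% interval 0.37 to 0.84, adjusted p = 0.00141). This model called 30.5% of all genes, so 1 call among 9 is a smaller share than in the background. Within Rounds 1 and 2 the log2 ratio of H2-T23 was 0.55 and 0.62. After thinning to 1000 UMIs, 13.9% (exact binomial 95% interval 11.99% to 16.03%) and 18.01% (16.13% to 20.01%) of islet IGRP+ cells had an H2-T23 UMI, against 9.28% (8.58% to 10.0%) and 11.9% (11.2% to 12.6%) of islet IGRP- cells. Unthinned, the shares were 43.3% and 57.9% against 32.2% and 40.1%. The intervals cover counting error only.

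For the other 8 genes the blocked log2 difference between islet IGRP+ and islet IGRP- cells ran from -0.34 (Nlrc5, edgeR adjusted p = 0.0802) to 0.05 (H2-Q7, 0.807). Tapbp was at -0.29 (0.0621), and its ratio was -0.33 and -0.29 in Rounds 1 and 2. Nlrc5 was uneven between rounds, with log2 ratios of -0.70 and -0.08. The ratio of H2-K1 changed sign between rounds (-0.35 and 0.23), as did that of H2-Q7 (0.21 and -0.14). B2m had a 95% interval of -0.27 to 0.29, Tap2 of -0.23 to 0.25, H2-D1 of -0.41 to 0.19 and H2-K1 of -0.40 to 0.30. Differences inside those bounds were not resolved.

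The other genes of the pathway gave the following picture of islet IGRP+ against islet IGRP- cells. Of the 6 genes that supply peptides, 0 passed edgeR without the block and 3 rose with it, where 14.4% of all genes passed as higher and 16.1% as lower: Psmb9 (0.44) and Psmb8 (0.37), which encode immunoproteasome subunits, and Psme2 (0.35), which encodes part of the PA28 activator. Psmb9 was at 201.4 and 215.5 normalised CPM in islet IGRP- cells and 290.0 and 269.9 in islet IGRP+ cells, with no overlap. Of 10 regulators, 1 fell without the block: Irf1, an interferon-induced transcription factor (-1.22, adjusted p = 0.0445), at 294.2 and 341.7 against 123.7 and 145.9 normalised CPM. With the block 2 fell, Irf1 and Nfya (-0.90), the latter under 20 CPM in every library and named to complete the count, while Irf2 (0.36) and Nfyb (0.37) rose. The 4 loading genes gave 0 calls in both fits. Of 12 other class I and class I-like genes tested, 0 passed without the block and 3 fell with it, of which H2-Q4 (-0.43) alone was above 20 CPM. Of 5 class II genes tested, 0 passed without the block and 3 fell with it, Cd74 (-1.28) among them.

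The second question concerned tissue. Tap2 was 1.61-fold lower in islet IGRP+ cells and 1.62-fold lower in islet IGRP- cells than in spleen IGRP+ cells, the largest difference among the members that passed the blocked test in either comparison. The 2 comparisons share the spleen libraries. Without the block, 0 of the 9 genes passed in islet IGRP+ against spleen (26.6% of all genes passed) and 0 in islet IGRP- against spleen (22.4%). Each comparison had 1 member with an unadjusted p under 0.05, Tap2, with log2 differences of -0.68 ± 0.24 and -0.71 ± 0.24 (edgeR adjusted p = 0.0853 in both). DESeq2 called 0 members in the first comparison and 1, Tap2, in the second.

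With the round as a block, 55.1% of all genes and 3 of the 9 members passed in islet IGRP+ against spleen IGRP+ cells. These were Tap2 (-0.69 ± 0.11, edgeR adjusted p = 0.000204), Tapbp (-0.32, 0.0264) and H2-Q7 (-0.35, 0.0356), all lower in the islets, where 27.1% of all genes passed as lower. Tap2 had ratios of -0.70 and -0.65 on the log2 scale in Rounds 1 and 2, Tapbp of -0.31 and -0.30, and H2-Q7 of -0.36 and -0.31. H2-Q6, not one of the 9, shares an identical run of 265 bases with H2-Q7 in the reference. It went the other way in this comparison (0.40, edgeR adjusted p = 0.0382). How reads were split between these copies was not measured. In islet IGRP- against spleen IGRP+ cells 55.4% of all genes and 3 members passed: Tap2 (-0.70 ± 0.11, adjusted p = 0.000134), H2-T23 (-0.44, 0.00389) and H2-Q7 (-0.40, 0.0185), again lower in the islets, beside 26.3% of all genes that passed as lower. Their log2 ratios in Rounds 1 and 2 were -0.61 and -0.72 for Tap2, -0.39 and -0.43 for H2-T23, and -0.57 and -0.17 for H2-Q7, which was the least even. In both comparisons the share of members called was below that of all genes.

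After thinning, 13.3% (12.2% to 14.5%) and 21.2% (19.6% to 22.9%) of spleen cells had a Tap2 UMI, against 7.72% (6.26% to 9.40%) and 13.4% (11.8% to 15.2%) of islet IGRP+ cells and 8.92% (8.23% to 9.65%) and 11.2% (10.6% to 11.9%) of islet IGRP- cells. Within each round the spleen share was above both islet shares. Unthinned, the shares were 32.3% and 47.7%, 30.7% and 45.9%, and 31.7% and 40.4%. The ratio of Tap1 to Tap2 UMIs was 0.638 and 0.655 in the spleen, 0.937 and 1.17 in islet IGRP+ cells and 1.121 and 1.325 in islet IGRP- cells. Per cell the spleen did not stand apart, since spleen cells held fewer UMIs in all: the mean was 0.407 and 0.676 Tap2 UMIs per spleen cell, 0.419 and 0.695 per islet IGRP+ cell and 0.421 and 0.573 per islet IGRP- cell. With the number of cells as the offset the median log2 difference of the 9 members from the spleen was 0.65 (islet IGRP+) and 0.55 (islet IGRP-), beside 0.70 and 0.62 over all genes, and 0 members passed.

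Among the pathway genes, Calr, which encodes the chaperone calreticulin of the loading complex, was higher in the islets in both comparisons without the block (0.72 and 0.86, adjusted p = 0.0291 and 0.0215). With the block 4 of the 4 loading genes rose in islet IGRP+ cells and 3 of 4 in islet IGRP- cells, beside 28% and 29.2% of all genes that passed as higher. Of the peptide supply genes, 0 of 6 passed with the block in islet IGRP+ against spleen cells, while Psmb8 (-0.56), Psmb9 (-0.54) and Psmb10 (-0.61) fell in islet IGRP- cells. Of 12 other class I and class I-like genes tested, 4 (islet IGRP+) and 2 (islet IGRP-) fell and 0 rose without the block. Of all genes, 26.6% and 22.4% passed in either direction. Cd1d1 fell in both comparisons (-0.68 and -0.85, edgeR adjusted p = 0.034 and 0.0202). With the block 4 and 6 fell and 2 and 1 rose, beside 27.1% and 26.3% of all genes lower and 28% and 29.2% higher. H2-Q4 rose in both comparisons (0.39 and 0.82), while H2-Q6 rose in islet IGRP+ cells (0.40) and was at -0.01 in islet IGRP- cells. Among the 10 regulators 1 rose and 1 fell without the block in islet IGRP+ cells, and 1 rose in islet IGRP- cells. The blocked fit gave 1 higher and 4 lower in islet IGRP+ cells, and 1 higher and 3 lower in islet IGRP- cells. Irf2 was lower in both (-0.34 and -0.69). The shares of all genes in each fit are those given above. Irf1 fell in islet IGRP+ against spleen cells (-1.08, edgeR adjusted p = 0.01), at 123.7 and 145.9 against 289.6 and 274.3 normalised CPM, and was at 0.14 (0.608) in islet IGRP- cells. Irf8, a transcription factor of the interferon regulatory factor family, was higher in the islets in both comparisons (1.90 and 1.70), at 21.2 and 25.05, 27.6 and 24.9, and 7.84 and 6.02 normalised CPM in islet IGRP-, islet IGRP+ and spleen cells. Cd74, the invariant chain of class II, was at 75.5 and 47.4 normalised CPM in islet IGRP-, 14.1 and 33.1 in islet IGRP+ and 1.72 and 1.25 in spleen cells, and 4 of the 5 class II genes tested rose in the islets without the block in each comparison, where 13.7% (islet IGRP+) and 12.2% (islet IGRP-) of all genes passed as higher. The remaining class II gene, H2-DMa, fell in islet IGRP+ against spleen cells (-0.60, edgeR adjusted p = 0.0439) and was at -0.44 (0.0995) in islet IGRP- cells. Class II genes mark B cells and myeloid cells, whose marker sums are given above. Most of the myeloid sum was Cd68 and most of the B cell sum Cd79b, so the sums hide the other markers. In islet IGRP-, islet IGRP+ and spleen cells Lyz2 was at 2.81 and 1.53, 0.170 and 0.877, and 0.104 and 0.145 CPM. C1qa was at 1.68 and 0.371, 0.170 and 0.626, and 0 and 0, and Csf1r at 0.377 and 0.519, 0 and 0.376, and 0.208 and 0.290. The part of such cells in the class II values was not tested.

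**Figure D2:**
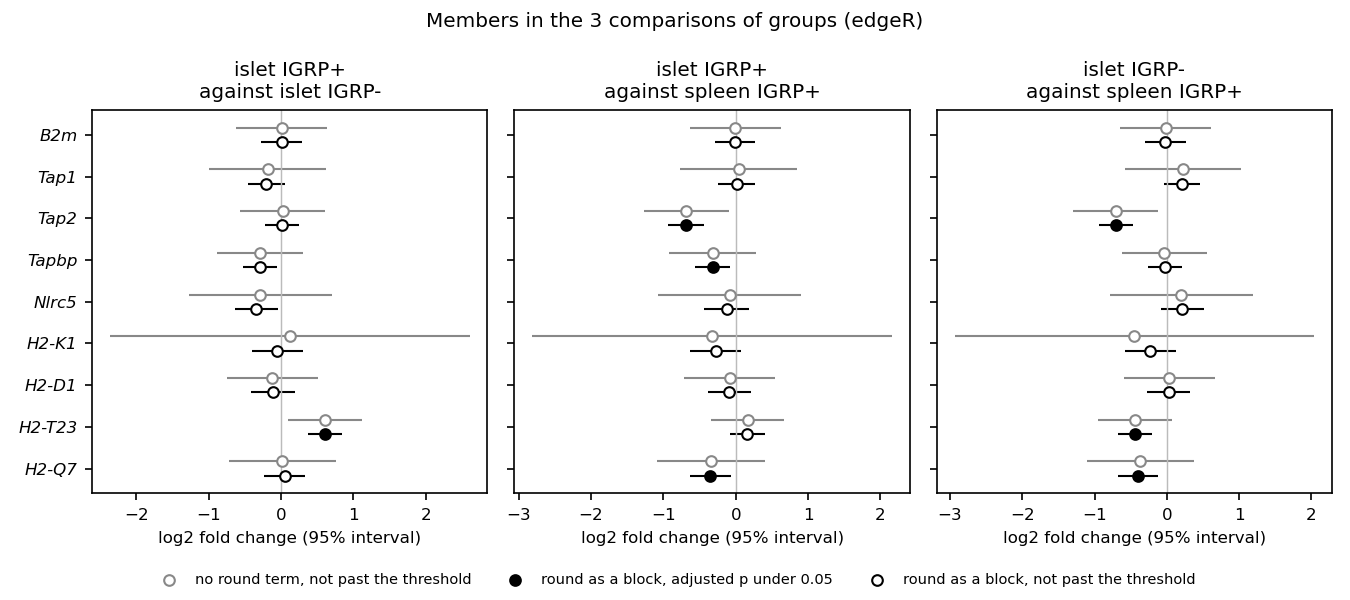
Log2 difference of each of the 9 genes in the 3 group comparisons (x axis) with 95% intervals, from edgeR with (black) and without (grey) the round as a block, filled where the adjusted p was under 0.05. The blocked intervals of H2-T23 in islet IGRP+ against islet IGRP- cells and of Tap2 in both comparisons with the spleen lie away from 0.

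The widest differences within this set lay between the rounds. In a model with group and round, 9 of the 9 genes had a log2 difference above 0 in Round 2 against Round 1, and 7 passed as higher. In that test 33% of all 10827 genes passed and 17.3% passed as higher. Each round was 1 pool, so the p-values of this test measure scatter between libraries within a round and not between pools. H2-K1 was 4.12-fold higher in Round 2 (log2 2.04 ± 0.14, edgeR adjusted p = 1.12e-07) and ranked 72 of 10827 genes by log2 difference. Its ratio of Round 2 to Round 1 was 3.06 in islet IGRP-, 4.60 in islet IGRP+ and 5.13 in spleen IGRP+ cells.

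The other calls were smaller. Nlrc5 had a log2 difference of 0.70, Tap1 of 0.58, H2-Q7 of 0.49, Tapbp of 0.40, Tap2 of 0.38 and H2-T23 of 0.31. H2-T23 lost its call without either islet IGRP- library or either spleen library (0.30 to 0.33). B2m (0.25 ± 0.11, edgeR adjusted p = 0.0821) and H2-D1 (0.18 ± 0.11, 0.253) did not pass. The median over the 9 was 0.40, beside -0.01 over all genes. With plain library totals in place of TMM the median over all genes moved to 0.19, that of the members to 0.61, and all 9 passed.

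Rounds differed in the pool of mice and in read length, the RNA reads of Round 1 being shorter, and these cannot be told apart. Reads from NOD alleles align to one reference copy or another by their letters, so the overlap between reference copies was measured. Of all windows of 50 bases in the longest coding transcript of H2-K1, 8.79% also occurred in a transcript of another gene, 0.131% of windows of 90 bases did, and 0% of 150 bases. For H2-Q7 these shares were 23.3%, 12.3% and 8.44%, shared at 150 bases with H2-Q6. H2-D1 had 14.3%, 5.12% and 1.79%, and H2-T23 18.1%, 8.75% and 0.831%. These libraries are read from the 5′ end. Of the first 500 windows of the transcript used, 3.8% of H2-K1, 0.6% of H2-D1, 0.2% of H2-T23 and 25.2% of H2-Q7 were shared at 50 bases. At 90 and at 150 bases the share was 0% for each. By GENCODE, H2-D1 and H2-T23 begin upstream of their RefSeq starts, so their first windows need not lie at the end captured. Their shares are therefore not set against those of H2-K1 and H2-Q7. B2m and Nlrc5 shared 0% at each length. These shares describe the reference copies, and since the sequence of NOD transcripts was not used here, how reads of the 4 heavy chains were split between copies was not measured.

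Other class I heavy chains went the opposite way between rounds. H2-Q1 was at 120.3 and 8.51, 85.4 and 10.8, and 134.2 and 6.02 normalised CPM in Rounds 1 and 2 of islet IGRP-, islet IGRP+ and spleen IGRP+ cells, 13.5-fold lower in Round 2. H2-Q2 was at 50.8 and 3.25, 41.9 and 4.26, and 53.6 and 3.14, or 14.4-fold lower. These 2 genes ranked 15 and 13 from the bottom of the 10827. H2-Q10 (-1.65), H2-Q6 (-0.97) and H2-T22 (-0.77) also passed as lower, while H2-T24 (0.68), under 20 CPM in every library and named to complete the count, passed as higher, so that 5 of the 12 class I and class I-like genes outside the set fell and 1 rose, in a test where 15.8% of all genes passed as lower.

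The 5 that fell were summed because they had passed as lower. That choice fixes the direction of their sum and also shapes its size, so the sum is a description only. The sum of H2-Q1, H2-Q2, H2-Q6, H2-Q10 and H2-T22 dropped from 743 to 353 normalised CPM in islet IGRP- cells, from 910 to 399 in islet IGRP+ cells and from 807 to 326 in spleen IGRP+ cells. Over those 5 genes, H2-Q4 and the 4 heavy chains of the set, the sum was higher in Round 2, at 4900 and 6592, 4788 and 6297, and 5061 and 6535. H2-K1 made up 9.72% and 22.1% of that sum in islet IGRP-, 7.79% and 27.2% in islet IGRP+ and 8.35% and 33.2% in spleen IGRP+ cells. UMIs count captured 5′ ends and were not divided by length. The order of groups for H2-K1 was not the same in both rounds. In Round 1 islet IGRP- cells held the most, and in Round 2 spleen cells did. Its ratio to H2-D1 UMIs was 0.172, 0.138 and 0.141 in islet IGRP-, islet IGRP+ and spleen IGRP+ cells in Round 1 and 0.409, 0.559 and 0.711 in Round 2.

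**Figure D3:**
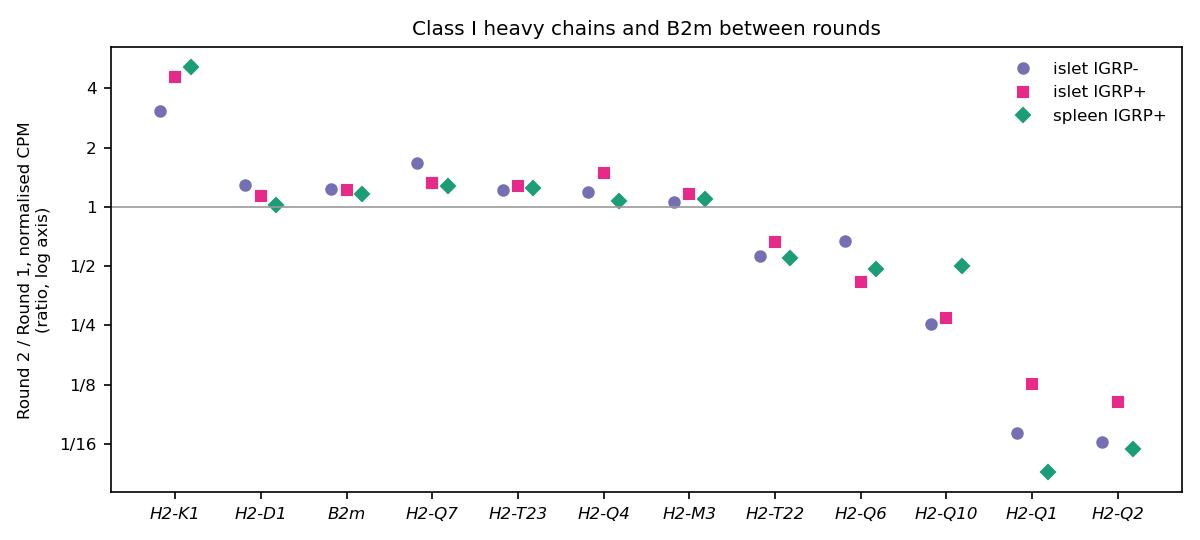
Ratio of Round 2 to Round 1 normalised CPM (log axis) for B2m, the 4 heavy chains of the set and other class I heavy chains, 1 point for each group. H2-K1 is 3.06 to 5.13 times higher in Round 2 and H2-Q1 and H2-Q2 are far below 1 in all 3 groups.

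Cycling islet cells, those with UMIs of both Mki67 and Top2a, numbered 254 and 210 in islet IGRP- and 101 and 78 in islet IGRP+ libraries. They were deeper than the other cells, with a median of 8758.5 to 9997 UMIs against 3589 to 4016. In cycling cells 2 members passed as higher and 1 as lower, in a test that called 43.6% of all 9621 genes, 22.2% as higher and 21.4% as lower. Nlrc5 was 1.52-fold lower (log2 -0.61 ± 0.10, edgeR adjusted p = 0.000195), and the values in other and cycling cells were 77.4 and 49.9, 103.9 and 66.8, 48.2 and 38.3, and 101.8 and 61.9 normalised CPM. Nlrc5 was lower in cycling cells of 4 of 4 libraries.

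Tap1 was 1.25-fold higher in cycling cells (0.32 ± 0.08, edgeR adjusted p = 0.00682) and H2-T23 1.18-fold higher (0.24 ± 0.08, 0.0276), each in 4 of 4 libraries. Tap1 rose from 109.4 to 123.0, from 156.7 to 200.5, from 84.4 to 106.9 and from 144.7 to 198.1 normalised CPM. H2-T23 lost its call without islet IGRP- Round 1 or 2 or islet IGRP+ Round 1 (0.22 to 0.24). None of the 3 calls was made after cells were thinned to 1000 UMIs, where Nlrc5 was at -0.42, Tap1 at 0.38 and H2-T23 at -0.02. Thinning instead called Tap2, which went from 0.05 to -0.65 (edgeR adjusted p = 0.0373). Counts were low there, with 254, 210, 101 and 78 cycling cells of 1000 UMIs each. Over all thinned cells of an islet library the mean was 0.0815 to 0.147 Tap2 UMIs per cell. With a limit of 2000 genes per cell only 20, 20, 11 and 7 cycling cells were left, and the fit used the 2 islet IGRP- libraries alone, those with at least 20 cells. Nlrc5 was then at -0.12, Tap1 at 0.03 and H2-T23 at 0.07, and 0 members passed. In the fit without thinning or the lower limit, 4 of the 6 peptide supply genes rose in cycling cells, with Psmb9 at 0.85 and Psmb8 at 0.53. Of the 10 regulators 2 rose and 2 fell, Irf1 (-0.56) among the latter. Of 4 class II genes tested, 4 fell and 0 rose (median log2 -2.01). The lists were not read after thinning, so the part of depth in these list values was not tested.

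**Figure D4:**
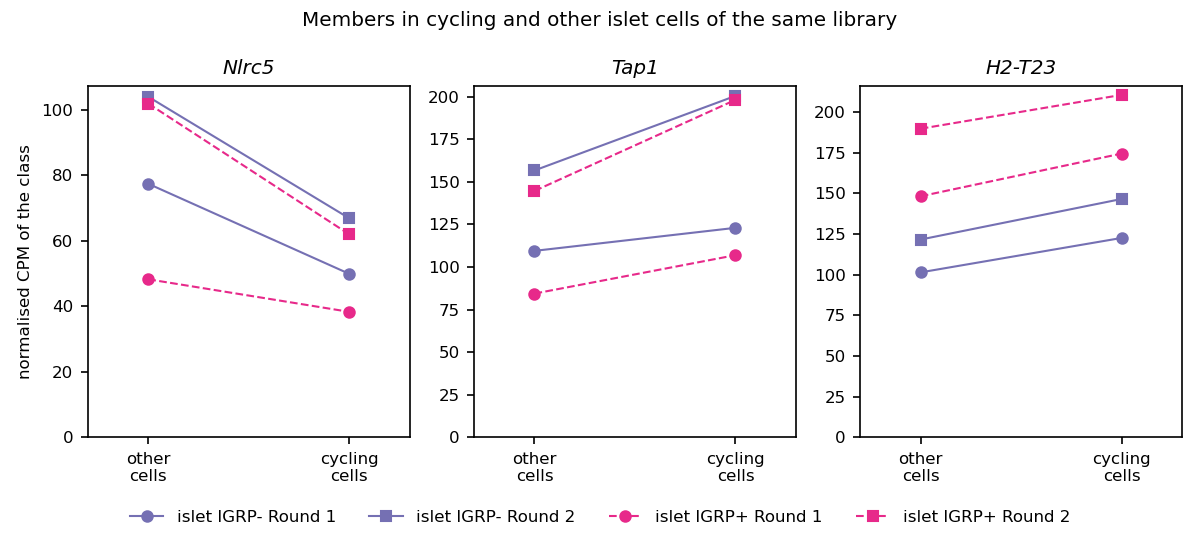
Normalised CPM (y axis, linear from 0) of the 3 members that passed, in other and in cycling cells of the 4 islet libraries, with lines joining the values of a library, circles for Round 1 and squares for Round 2. Nlrc5 is lower and Tap1 and H2-T23 are higher in cycling cells of 4 of 4 libraries.

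Levels over the 6 libraries were compared by Pearson's r of log2 normalised CPM among 5580 genes. The genes that ran most alike were Nme3 for H2-K1 (0.997), Exosc10 for Tap2 (0.998), Lcp1 for H2-T23 (0.993), Ctnnbl1 for B2m (0.998), Klf13 for Tap1 (0.997), Hnrnpul2 for Tapbp (0.993), Smarcd2 for Nlrc5 (0.996), Dpp3 for H2-Q7 (0.992) and Hsph1 for H2-D1 (0.96). The points are 6 libraries that share rounds and pools, and the best match among so many genes is near 1 by choice, so these are descriptions.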

How the data were processed

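The authors deposited raw UMI counts per gene and cell from 6 10x 5′ scRNA-seq libraries, made with Cell Ranger against mm10 and not normalized. The study's methods and the matrix header name different versions of Cell Ranger, the header giving 5.0.1. The 6 matched scTCR-seq libraries were not used. Cells were kept if under 5% of UMIs were mitochondrial and at least 200 genes were detected, up to 3500 for islet and 2000 for spleen libraries. Libraries held between 1204 and 8932 cells. Doublets were not called and ambient RNA was not removed.

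Counts were summed per library, or over cycling and other cells of a library, and tested in R 4.3.3 with edgeR 4.0.16 (TMM, filterByExpr, quasi-likelihood F-tests, Benjamini-Hochberg adjustment over all genes tested, threshold 0.05). limma 3.58.1 was loaded by edgeR. DESeq2 1.42.0 was an alternative. The main model for groups had no round term. Round numbers pair libraries because each round was 1 pool, and the deviations of same-round libraries correlated (Pearson r across 5615 genes, which are not independent, of 0.836, 0.851 and 0.821), so the blocked fit is given beside results it changes. An exact permutation test of 2 libraries against 2 cannot go below p = 0.3333. At the depth of these libraries the interval of each log2 difference sets what could be resolved.

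Python 3.11.15 with numpy 2.4.6, pandas 2.3.3 and scipy 1.17.1 was used for levels, thinning and sequences, and matplotlib 3.10.9 for figures. Thinned shares are over the cells that reached the depth and carry exact binomial intervals at the 95% level. The models were run on simulated counts with known changes, drawn with the same spread for every gene. The outcome is not given here and does not measure false calls in the real data. The genes named were the 9 members, the 3 genes most like each member (the first is given), and those genes of the pathway lists with an adjusted p under 0.05 and at least 20 CPM in the higher group, of which examples are given. Nfya and H2-T24 fall outside that rule and were named after their values were seen. Of those lists H2-T10 and H2-Bl matched no symbol, and Ciita did not pass the filter. Members, lists and cell classes were chosen with earlier results of these data known. Planned comparisons of 2 further classes of cells, and 1 gene of a list, are not reported here. Positions and transcripts are from GENCODE on GRCm38, and promoters from RefSeq on GRCm38.p6.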

Additional observations from a re-analysis of the deposited data

How the results depend on the processing

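With the round as a replicate block, pairing the libraries of a pool, the members called went from 0 to 1 in islet IGRP+ against islet IGRP- cells, to 3 in islet IGRP+ against spleen and to 3 in islet IGRP- against spleen, and all genes called from 134 to 3442, 3004 to 6215 and 2530 to 6251. No filter on low counts called 1 member (Tap2) in each comparison with the spleen, and DESeq2 1 (Tap2) in islet IGRP- against spleen. In islet IGRP+ against islet IGRP- cells, DESeq2 called 574 genes, no filter 711, a fit over the 4 libraries compared 24, the number of cells as the offset 41 and plain library totals 53. The number of cells as the offset called 4889 and 3952 genes against the spleen. Between rounds DESeq2 called 2275 genes. In cycling cells a limit of 2000 genes, which left 2 libraries of 20 cycling cells, gave 0 members and 165 genes, and thinning gave 1 member (Tap2) and 1578 genes, with Tap2 (-0.65) and H2-T23 (-0.021) reversed.

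Leaving out each library in turn called 0 to 30 genes and 0 members in islet IGRP+ against islet IGRP- cells, 892 to 2050 genes in islet IGRP+ against spleen, 382 to 2547 in islet IGRP- against spleen, and 2285 to 3120 between rounds with 6 to 7 members, H2-T23 losing its call without either islet IGRP- library or either spleen library. It called 2837 to 4248 genes and 2 to 3 members in cycling cells. The lone library left in a group is taken to vary like the others. Of 360 single-gene alternatives 336 stayed on their side of the threshold, and of 252 leave-one-out values 244 did. Among these, 34 (13 with the number of cells as the offset) and 33 changed sign with neither value called. Thinning to 2000 UMIs or not at all raised every share. Cells under 2000 UMIs were dropped, which left 2680 of 3524 spleen cells of Round 1, so depth and cells both changed. Plain library totals were chosen after seeing the data. The cause of these changes was not tested. Depth and 2 libraries a group limit what could be called.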
